A study of Mus musculus with 12 samples.

Results

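The cortex of p53 knockout (KO) mice was compared with that of wild-type (WT) mice after saline alone, the baseline of a study of alcohol exposure in newborn mice. Members were all libraries labelled p53 KO and saline (3) or WT and saline (3), which are 6 of the 12 libraries. The other 6 libraries came from mice of both genotypes given ethanol, and they were used here to estimate the spread and to set the baseline difference beside the difference after ethanol. All mice were postnatal day 7 males on a C57BL/6 background, offspring of heterozygous parents, and the KO mice carried the Trp53tm1Tyj allele in every cell of the body. Saline was given in 2 injections, tissue was taken 8 hours after the second injection, and stranded total RNA of somatosensory cortex was sequenced. The labels do not say which libraries came from laser microdissection and which from a hole punch, nor do they name litters, so the p-values measure the spread between these samples.

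The Trp53 gene encodes p53, a transcription factor that is kept low by the ubiquitin ligase Mdm2 in unstressed cells and accumulates after DNA damage and other stress. It then activates genes of cell cycle arrest such as Cdkn1a, of apoptosis such as Bax, Bbc3 and Perp, and of DNA repair such as Xpc and Ddb2. In the newborn cortex, p53 is known for its part in the death of neurons during development and after insults. Red cells, meninges and choroid plexus can enter a dissected sample, so their markers were examined with those of the cortical cell types.

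Levels below are normalized CPM, the count of a gene scaled by effective library size, the total count multiplied by the edgeR TMM factor. They are given for WT saline replicates 1, 3 and 13 and then KO saline replicates 7, 8 and 9, in that order. The factors were 0.56, 1.00, 0.86, 1.17, 1.00 and 1.12 in the same order. The low factor of WT saline replicate 1 makes its levels higher than scaling by total count alone would. Log2 fold changes are KO minus WT with the standard error (SE), and adjusted p-values come from edgeR (quasi-likelihood F test, Benjamini-Hochberg over the 14740 genes tested). A gene was called at an adjusted p under 0.05, and genes under a permissive level of 0.30 were counted as well.

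The targeted gene was examined first. The Trp53 level was 3.67, 26.2 and 14.4 CPM in the WT saline libraries and 27.6, 11.1 and 11.7 CPM in the KO saline libraries. The groups overlapped, and the means of 14.8 ± 11.3 and 16.8 ± 9.35 CPM (SD, n = 3 per group) did not differ in an exact permutation test (two-sided p = 0.9). The Tyj allele removes 5′ coding exons and leaves 3′ exons that can still be transcribed, so the total level does not check the genotype. The split of the counts between the 2 listed transcripts did differ. Transcript NM_001127233 took 7.01%, 7.01% and 16.6% of the Trp53 counts in the WT libraries and 68.5%, 70.6% and 65.7% in the KO libraries. These shares did not overlap, and the exact two-sided p of 0.1 is the smallest that 3 libraries against 3 can give. In WT saline replicates 1 and 3 they rest on 20 and 51 Trp53 counts, of which 1.40 and 3.57 fell to this transcript. WT saline replicate 13 had 194 Trp53 counts and the KO saline libraries had 133 to 374. Shared reads were divided between transcripts, so the shares of WT saline replicates 1 and 3 are uncertain.

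The libraries of the 2 groups also differed in make-up. Total counts ranged from 1953154 to 15719626 in WT and from 10143487 to 17066392 in KO saline libraries, and the lowest was WT saline replicate 3, the only one of the 6 whose name opens with L. Transcripts over 5000 bases took 8.12% to 17.2% of the counts in WT and 21.1% to 22.6% in KO libraries. Transcripts under 1500 bases took 23.0% to 46.8% in WT and 15.3% to 16.7% in KO libraries. WT saline replicate 1 was at the extreme for both. The second letters of the library names also differ between the groups, and their meaning is not given, so whatever they mark and the genotype cannot be told apart.

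At baseline, 8 genes were called higher in KO cortex (0.0543% of the genes tested) and 0 were called lower. Several of the 8 are proteins of synapses: Rims1 tethers vesicles at the presynaptic active zone, Shank2 and Dlgap2 are scaffolds of the postsynaptic density, and Gabbr2 is a subunit of the metabotropic GABA receptor. The others were Hivep3, a zinc-finger transcription factor, Cit, a kinase of cytokinesis, Peg3, an imprinted gene expressed from the paternal allele, and Fam13b. At the 0.30 level 1823 genes were higher (12.4%) and 1977 were lower (13.4%) in KO cortex. At an unadjusted p under 0.05 there were 1347 higher and 1543 lower genes (19.6% in all), and the smallest adjusted p among genes lower in KO was 0.131. Other tools gave other counts: DESeq2 called 342 higher and 374 lower, and limma voom with quality weights 2561 and 1880. With scaling by library size only, the median of all genes moved from 0.04 to 0.49, and 83.2% of the genes at the 0.30 level were higher, against 48.0% here. The 3800 genes at this level became 9 without KO saline replicate 8 or 9, 37 without WT saline replicate 1 and 7557 without WT saline replicate 3, so the counts at 0.30 given for gene groups below rest on single libraries.

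The largest log2 difference among the 8 called genes was in Hivep3 (chr4:119814678-120135411, mm10). Its level was 1.65, 2.06 and 1.63 CPM in WT saline and 22.6, 32.4 and 44.8 CPM in KO saline libraries, so the groups were far apart. It rose by 4.26 on the log2 scale (SE 0.56, edgeR adjusted p = 0.0292). Cit (chr5:115845656-116006341) was at 1.84, 0.51 and 0.82 CPM in WT and 26.1, 13.3 and 20.8 CPM in KO libraries. All KO values lay above all WT values, a rise of 4.16 (SE 0.58, edgeR adjusted p = 0.0297).

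The 4 synaptic genes were apart as well. Gabbr2 (chr4:46663898-46991714) was at 5.33, 19.0 and 14.7 CPM in WT and 94.5, 94.2 and 148 CPM in KO libraries, a rise of 3.13 (SE 0.51, edgeR adjusted p = 0.0472). Shank2 (chr7:144175520-144422675) was at 3.86, 14.9 and 7.65 CPM against 61.4, 75.9 and 84.9 CPM, a rise of 3.14 (SE 0.52, edgeR adjusted p = 0.0477). The lowest KO library was well above the highest WT library in both genes. Rims1 (chr1:22288422-22805724) was at 4.04, 7.20 and 8.02 CPM against 36.2, 35.3 and 42.2 CPM, a rise of 2.56 (SE 0.39, edgeR adjusted p = 0.0376). Dlgap2 (chr8:14095875-14847686) was nearly equal in the WT libraries at 2.57, 2.57 and 2.67 CPM and reached 18.6, 13.3 and 18.6 CPM in KO libraries, a rise of 2.68 (SE 0.41, edgeR adjusted p = 0.0376).

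Peg3 (chr7:6705960-6730419) was at 5.51, 10.3 and 9.43 CPM in WT and 87.3, 78.7 and 78.3 CPM in KO libraries, and it rose by 3.29 (SE 0.53, edgeR adjusted p = 0.0472). Fam13b (chr18:34442351-34506823) was at 13.4, 13.4 and 20.1 CPM against 73.2, 79.1 and 80.0 CPM and rose by 2.29 (SE 0.35, edgeR adjusted p = 0.0376). The groups did not overlap in any of the 8 genes, and over all genes tested the KO libraries lay wholly above the WT libraries in 12.9% and wholly below in 10.1%. The calls depended on single libraries: 0 genes were called without WT saline replicate 1 or without KO saline replicate 8 or 9, 1 without WT saline replicate 13 or KO saline replicate 7, and 2177 without WT saline replicate 3, the shallowest. Leaving out an ethanol library gave 0 without WT ethanol replicate 5 or KO ethanol replicate 18, 1 without KO ethanol replicate 10, 2 without WT ethanol replicate 14, 8 without WT ethanol replicate 4 and 73 without KO ethanol replicate 12.

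**Figure D1:**
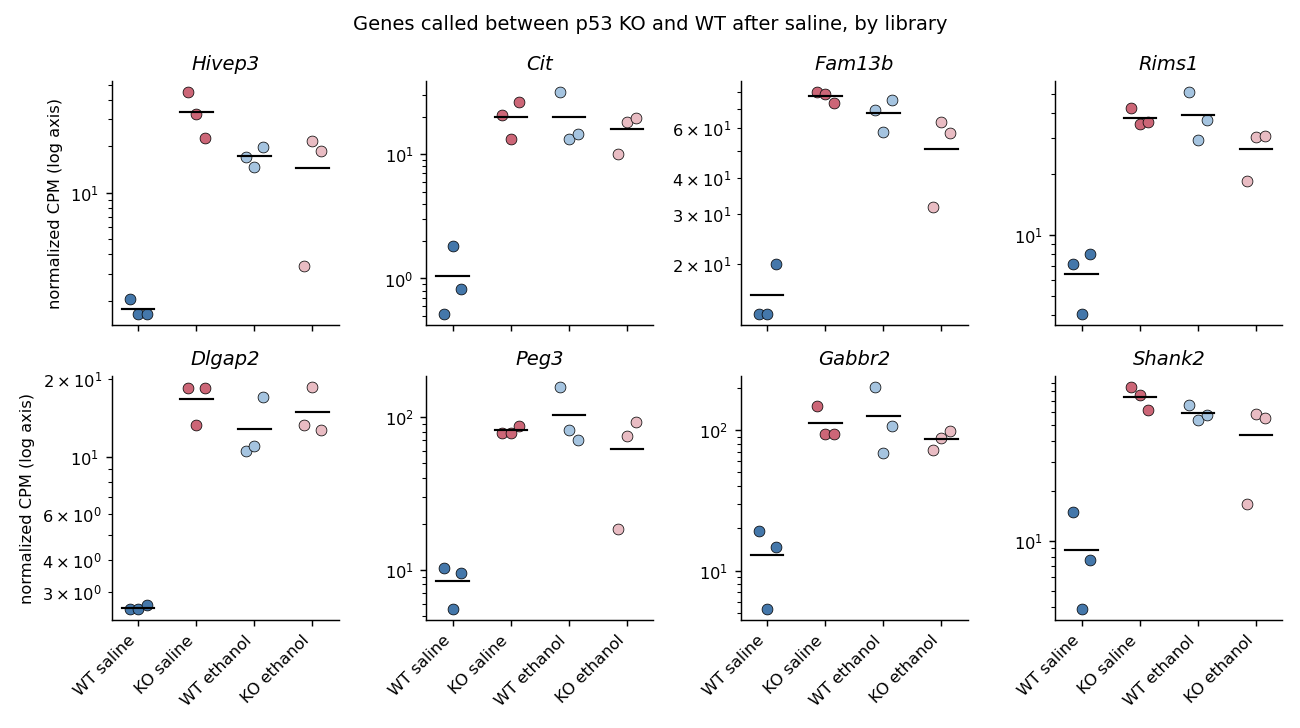
Normalized CPM (log axis) of the 8 called genes in each of the 12 libraries, with 3 points per group and a bar at the group mean. In every gene the 3 WT saline libraries lie below all 9 other libraries, including those of WT mice after ethanol.

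The next genes in order of p were also higher in KO libraries without being called. They were D030028A08Rik (log2 fold change 3.05, edgeR adjusted p = 0.0698), Abca8b, a transporter of the ABC family (2.92, 0.0698), Plcb4, a phospholipase C of G-protein signalling (3.15, 0.101), and Ccdc186 (2.97, 0.118).

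No gene was called lower, and 12 genes headed the list by p. Ppp1r14b, an inhibitor of protein phosphatase 1, had the smallest p, at 174, 190 and 181 CPM in WT and 71.0, 63.1 and 80.5 CPM in KO libraries. The groups were well separated, with a log2 fold change of -1.34 (SE 0.28, edgeR adjusted p = 0.131). Clpp, a mitochondrial protease subunit, was equally even within groups at 72.0, 81.2 and 75.4 CPM against 33.7, 32.2 and 27.7 CPM (log2 fold change -1.29, edgeR adjusted p = 0.16). Stard10, a lipid transfer protein, was at 18.6, 33.9 and 31.8 CPM against 8.34, 6.79 and 6.93 CPM (-1.93, 0.16).

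Others on that list were high mainly in 1 WT library. Rmrp, the RNA of the mitochondrial RNA processing ribonuclease, was at 77.0, 7.71 and 9.36 CPM in WT and 2.14, 0.29 and 0.53 CPM in KO libraries. H2-Aa, a class II antigen-presenting chain, was at 11.6, 0.51 and 1.93 CPM against 0.15, 0.18 and 0.35 CPM. Asgr1, Gstm2 and Ifitm2, an interferon-induced membrane protein, were likewise highest in WT saline replicate 1, at 16.7, 19.5 and 105 CPM. The remaining 4 were Cbr2, 6330403K07Rik, 1110017D15Rik and the microRNA gene Mir8097, with log2 fold changes of -4.91, -1.48, -2.14 and -7.07. Cbr2 and Mir8097 were near the floor, at 3.12 CPM or less in WT and 0.12 CPM or less in KO libraries, so their fold changes are uncertain. Of the 12, Cbr2 alone overlapped between groups, with WT saline replicate 3 at 0.

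The direction of the difference followed transcript length. The 887 tested genes with transcripts under 1000 bases had a median log2 fold change of -1.36, and 66.0% of them were lower at the 0.30 level. The 1032 genes with transcripts of 7000 bases or more had a median of 0.75, and 36.9% were higher. The median length was 4642 bases for genes higher and 1353 bases for genes lower at the 0.30 level, against 2965 bases for all genes tested. When each library's trend with length and GC content was removed, 3671 of these 3800 genes kept their sign and 1066 stayed under 0.30 with the same sign, and 6 of the 8 called genes stayed under 0.05, the exceptions being Rims1 (edgeR adjusted p = 0.0694) and Dlgap2 (0.129). Medians after this removal are therefore given beside those of the gene groups. Over all 14740 genes tested, 572 were then higher and 956 lower at the 0.30 level. Counts given below with the trend removed are to be read against these, not against 12.4% and 13.4%.

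**Figure D2:**
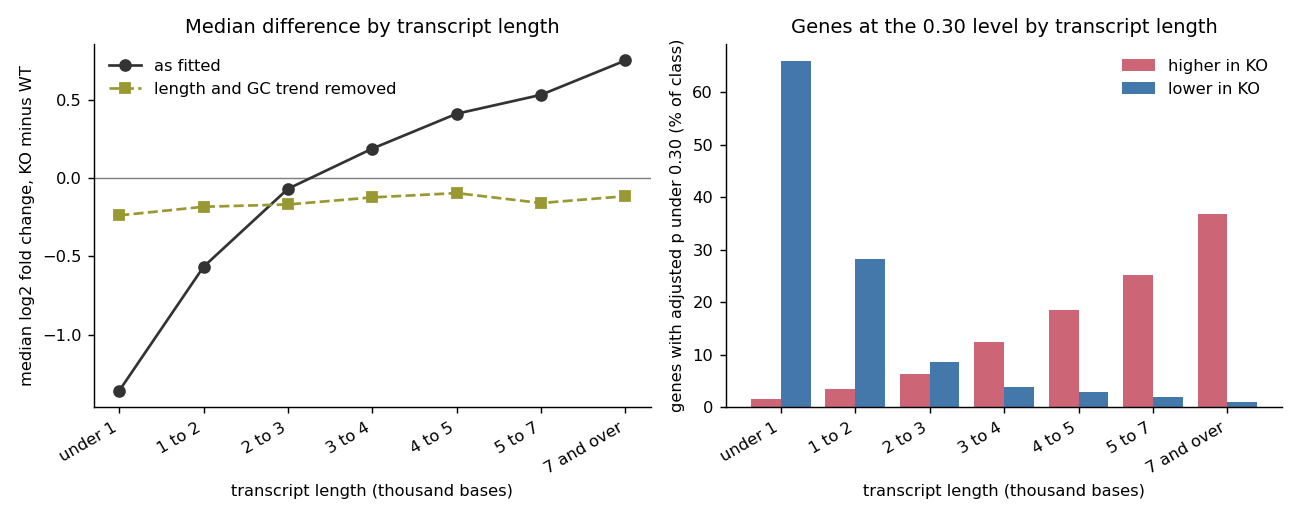
Left, median log2 fold change (KO minus WT after saline) by class of transcript length, as fitted and with the length and GC trend removed. Right, percent of each class at an adjusted p under 0.30, higher or lower in KO: the share lower falls from 66.0% in the shortest class and the share higher rises to 36.9% in the longest.

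Most genes of protein synthesis and respiration were lower in KO cortex at the 0.30 level, against 13.4% of all genes tested. Of 78 tested cytosolic ribosomal protein genes, 76 were lower and 0 higher at the 0.30 level, with a median log2 fold change of -2.43 against 0.04 for all genes tested. Of 81 genes of oxidative phosphorylation, the respiratory chain and ATP synthase, 73 were lower and 0 higher (median -1.76). Mitochondrial ribosomal proteins had 51 of 76 lower (median -1.02), proteasome subunits 20 of 37 lower and 1 higher (median -0.92), and glycolysis 6 of 16 lower (median -0.63, but 0.18 and 0.19 on the authors' RPKM scales). With the length and GC trend removed the medians were -1.09, -0.74, -0.47, -0.50 and -0.61, and 24, 6, 15, 4 and 0 genes were lower at the 0.30 level. The median over all genes tested was then -0.16, and 956 of the 14740 genes tested were lower at the 0.30 level.

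Rps13, a protein of the small ribosomal subunit, was at 1458, 459 and 631 CPM in WT and 191, 168 and 160 CPM in KO libraries. The groups did not overlap, and the log2 fold change was -2.30 (SE 0.63, edgeR adjusted p = 0.176). Rpl39, of the large subunit, was at 9070, 589 and 1157 CPM against 351, 383 and 293 CPM (-3.40, SE 0.95, edgeR adjusted p = 0.176). WT saline replicate 1 was several times higher than the other WT libraries here, and the summed level of the list was 336991 CPM in it, 64474 and 97525 CPM in the others and 23270, 41304 and 29056 CPM in KO libraries. Without WT saline replicate 1 the list's median was -1.33 and 0 of its genes were under 0.30. Many ribosomal protein genes have processed pseudogenes of near-identical sequence, so their counts are uncertain.

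Messenger RNAs of ribosomal proteins are known to begin with a run of pyrimidines, through which their translation is controlled together. A C followed by at least 5 C or T bases was searched on the sense strand, starting within 5 bases of an annotated start, in the RefSeq promoter windows (GRCm38.p6). Of the 57 ribosomal protein genes with a window, 25 held such a run (43.9%), against 13.1% of 11224 tested genes. The windows of the 3 genes with such a run and the smallest p are shown from 15 bases before to 15 after the start, to show the feature these genes share. The search ran from left to right and skipped matches that overlap an earlier one. Capitals mark the match nearest the start among those kept, up to the end of its run. In all 3 windows a skipped match begins closer to the start. In Rpl35a the run of pyrimidines begins upstream of the capitals.
Rps27 (chr3:90213634-90213663, minus strand): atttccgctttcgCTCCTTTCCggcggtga
Rpl35a (chr16:33056467-33056496, plus strand): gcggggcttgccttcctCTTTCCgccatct
Rpl28 (chr7:4792950-4792979, plus strand): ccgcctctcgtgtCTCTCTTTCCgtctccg
Rps27 was at 4424, 348 and 564 CPM in WT and 214, 215 and 129 CPM in KO libraries. Rpl35a and Rpl28 had log2 fold changes of -2.99 and -2.63, and the groups did not overlap in any of the 3 genes.

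Among respiratory genes, Ndufa12, an accessory subunit of complex I, was at 868, 227 and 279 CPM against 118, 115 and 72.4 CPM (log2 fold change -2.17, SE 0.61, edgeR adjusted p = 0.176). Sdhc, a membrane anchor of complex II with a longer transcript, was at 296, 142 and 267 CPM against 84.1, 58.6 and 74.3 CPM (-1.70, SE 0.47, edgeR adjusted p = 0.176), and it was still at -1.97 with the length and GC trend removed. The groups were apart in both. Gapdh and Aldoa, enzymes of glycolysis, were at 1413 to 2177 and 1041 to 1240 CPM in WT and at 579 to 834 and 366 to 443 CPM in KO libraries. Psmb4 and Psmb10, subunits of the proteasome core, had log2 fold changes of -1.79 and -1.73 (edgeR adjusted p = 0.176 for both).

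Where genes of neuronal signalling passed the 0.30 level they were mostly higher in KO cortex, and no member was lower in 6 of the 7 lists. Of 24 glutamate receptor genes, 10 were higher (median 0.63). Of 36 voltage-gated calcium and sodium channel genes, 11 were higher (median 0.76), and of 78 genes with potassium channel symbols 13 were higher and 3 lower (median 0.30), one of the 3 being the noncoding Kcnq1ot1. Of 38 genes of synaptic adhesion and scaffold 13 were higher (median 0.52), of 35 genes of the synaptic vesicle cycle 6 (median 0.23), of 20 genes of GABA receptors and transport 4 (median 0.30), and of 69 axon guidance genes 14 (median 0.62). For comparison, 12.4% of all genes tested were higher. With the length and GC trend removed the medians of the 7 lists lay between -0.14 and 0.26, and 1 to 6 genes of a list were higher and 0 to 2 lower. There, 1 glutamate receptor gene was higher and 1 lower, and 1 gene of GABA receptors and transport was higher and 2 lower.

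Gria2, the subunit that sets the calcium permeability of AMPA receptors, was at 280, 219 and 133 CPM in WT and 555, 812 and 524 CPM in KO libraries. The groups did not overlap, and the log2 fold change was 1.58 (SE 0.49, edgeR adjusted p = 0.176). Grik2 and Grik3, kainate receptor subunits, were at 1.30 and 1.59. Cacna1e, the pore of R-type calcium channels, was at 22.6, 12.9 and 19.9 CPM against 97.8, 99.3 and 99.0 CPM, so the KO libraries were nearly equal (2.40, SE 0.55, edgeR adjusted p = 0.147). Kcnn3, a calcium-activated potassium channel, was at 1.29, 2.57 and 3.71 CPM against 9.37, 14.9 and 14.7 CPM (2.32, SE 0.49, edgeR adjusted p = 0.131).

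Cntn5, a neuronal adhesion protein, and the guidance cues Slit3 and Ntn1 had log2 fold changes of 2.08, 2.24 and 1.65. Gabbr1, the partner of Gabbr2 in the GABA-B receptor, was not called: it was at 472, 517 and 938 CPM against 388, 373 and 445 CPM (-0.68, SE 0.41, edgeR adjusted p = 0.362), with all KO values below all WT values.

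Large regulators of chromatin moved the same way at that level. Of 56 chromatin writers, erasers and remodelers, 19 were higher and 0 lower at the 0.30 level (median 0.74), and of 33 giant scaffolds and ubiquitin ligases 14 and 0 (median 0.82). The shares higher were 33.9% and 42.4%, against 12.4% of all genes tested. These lists hold the longest transcripts, and their medians were 0.11 and -0.11 with the length and GC trend removed. Then 2 genes were higher in each, and 2 were lower in the chromatin list and 0 in the other. Crebbp, an acetyltransferase that also acts on p53, was at 5.14, 7.71 and 4.01 CPM against 25.6, 18.0 and 22.4 CPM (2.02, SE 0.46, edgeR adjusted p = 0.147). The histone methyltransferases Ash1l and Setd2 had log2 fold changes of 1.63 and 1.29, and Syne1, a nuclear envelope scaffold, of 1.9.

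**Figure D3:**
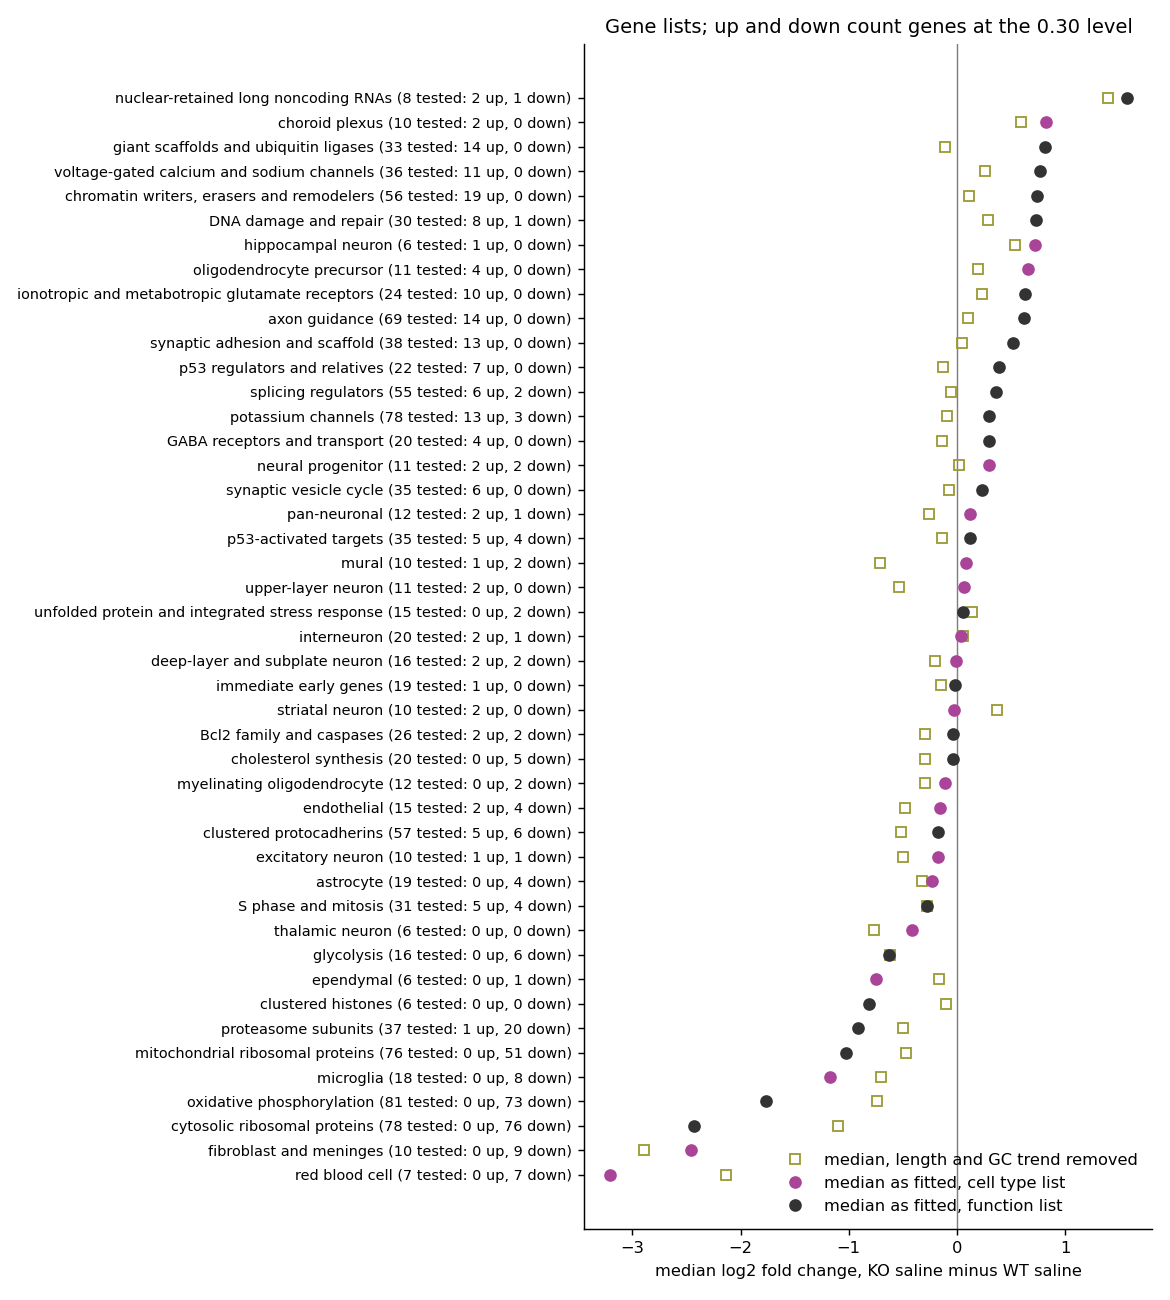
Median log2 fold change (KO minus WT after saline) of each gene list, as fitted (filled circles, cell type lists in purple and function lists in black) and with the length and GC trend removed (open squares), with the number of genes tested and the numbers higher and lower at an adjusted p under 0.30. Ribosomal and respiratory lists lie at the left at -2.43 and -1.76, and channel and chromatin lists at the right move toward 0 when the trend is removed.

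The genes that p53 activates were spread over both directions. Of 35 tested targets, 5 were higher and 4 lower at the 0.30 level (14.3% and 11.4%), shares close to the 12.4% and 13.4% of all genes tested. The median log2 fold change was 0.12, or -0.14 with the length and GC trend removed, where 3 were higher and 2 lower. The summed level was lower in every KO than in every WT library, at 1238 to 1413 CPM in WT and 1069.6 to 1166 CPM in KO libraries. This sum depends most on abundant genes: the mean fell from 307 to 140 CPM in Ei24 and from 168 to 77.2 CPM in Bax. Of the 35 targets, 20 had a log2 fold change above 0 and 15 below, so the sum does not describe the targets as a whole. The 4 lower genes were Ei24, Bax, Perp and Dcxr, of which the first 3 are known in cell death. The 5 higher genes were Sesn2, a stress-induced regulator of metabolism, Polk, a translesion polymerase, the damage recognition genes Ddb2 and Xpc, and Mdm2.

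Bax, the pore-forming protein of mitochondrial apoptosis, was at 254, 120 and 130 CPM in WT and 102, 71.0 and 58.4 CPM in KO libraries. The groups were apart by a small margin (log2 fold change -1.12, SE 0.39, edgeR adjusted p = 0.179). Ei24 was at 361, 186 and 373 CPM against 127, 152 and 142 CPM (-1.13, SE 0.35, edgeR adjusted p = 0.176) and stayed at -1.13 with the length and GC trend removed, whereas Bax, a short transcript, moved to -0.41. Perp was at 36.4, 8.23 and 13.4 CPM against 7.45, 7.20 and 7.11 CPM, with the largest WT value in replicate 1 (-1.43, SE 0.50, edgeR adjusted p = 0.179).

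Cdkn1a, the cell cycle inhibitor p21 and the best known target, was at 45.9, 27.8 and 54.9 CPM in WT and 22.4, 22.3 and 36.0 CPM in KO libraries. The groups overlapped (-0.68, SE 0.53, edgeR adjusted p = 0.48). Mdm2 was at 12.5, 20.6 and 17.6 CPM against 26.1, 25.4 and 27.8 CPM, higher in every KO library (0.65, SE 0.32, edgeR adjusted p = 0.273). Ccng1, Plk2 and Pmaip1 had log2 fold changes of -0.05, 0.06 and 0.21 with adjusted p-values of 0.971, 0.957 and 0.903 in the edgeR test.

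The p53 half-site, the 10-base element that p53 binds in pairs, was searched by its consensus, which reads the same on both strands, in the same promoter windows. It was present in 11 of the 27 targets with a window (40.7%) and in 8.31% of the tested genes with one. All 6 targets named in the paragraphs above with a half-site in the window are shown, with the half-site in capitals within 30 bases. They set the element beside the measured values.
Ei24 (chr9:36797325-36797354, minus strand): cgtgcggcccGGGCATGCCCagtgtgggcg
Bax (chr7:45467080-45467109, minus strand): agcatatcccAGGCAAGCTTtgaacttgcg
Polk (chr13:96519399-96519428, minus strand): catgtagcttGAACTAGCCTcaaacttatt
Mdm2 (chr10:117710925-117710954, minus strand): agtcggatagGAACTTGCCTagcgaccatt
Ccng1 (chr11:40755452-40755481, minus strand): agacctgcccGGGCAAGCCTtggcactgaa
Cdkn1a (chr17:29090896-29090925, plus strand): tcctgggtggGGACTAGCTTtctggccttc
Of these 6 genes, 2 were lower at the 0.30 level, 2 were higher and 2 did not pass. Polk, without a value above, had a log2 fold change of 1.46 (SE 0.63, edgeR adjusted p = 0.229).

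**Figure D4:**
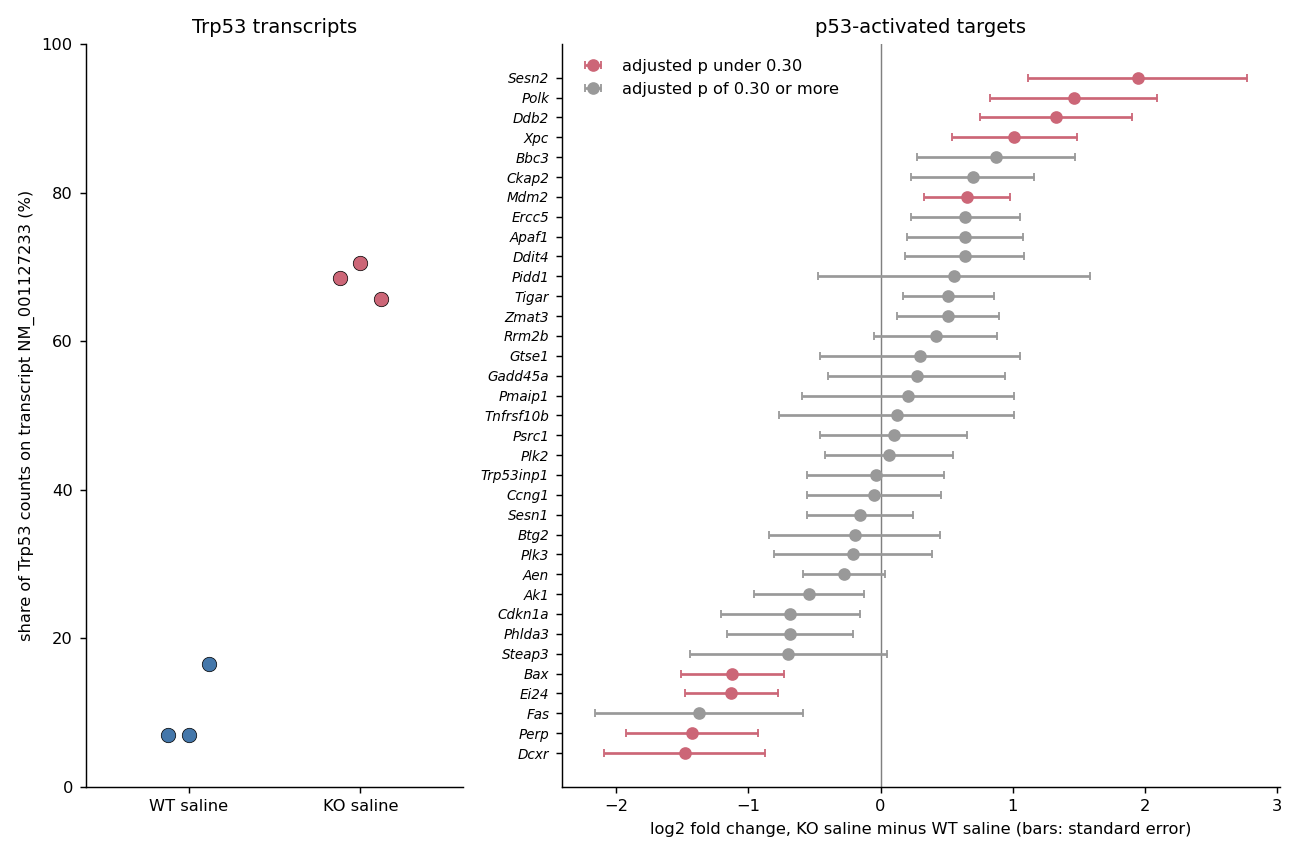
Left, share of Trp53 counts on transcript NM_001127233 in each saline library, 7.01% to 16.6% in WT and 65.7% to 70.6% in KO. Right, log2 fold change with its standard error for the 35 tested p53-activated targets, of which 9 were under an adjusted p of 0.30.

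Genes that regulate p53 were higher where they moved. Of 22 tested, 7 were higher and 0 lower at the 0.30 level (31.8% higher, against 12.4% of all genes tested). The median was 0.39, and -0.13 with 1 higher and 1 lower when the length and GC trend was removed. The 7 were Crebbp, Dmtf1, Mdm4, Trp53bp1, Atm, Hipk2 and Atr. Mdm4, an inhibitor of p53, was at 25.9, 53 and 22.7 CPM in WT and 90.6, 91.3 and 78.6 CPM in KO libraries (1.38, SE 0.51, edgeR adjusted p = 0.185). Atm, the kinase that signals DNA breaks, was at 16.7, 10.3 and 11.8 CPM against 22.7, 27.2 and 28 CPM (1.0, SE 0.38, edgeR adjusted p = 0.195). Trp53bp1, a protein of break repair that binds p53, was at 0.89.

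Among 30 genes of DNA damage and repair, 8 were higher and 1 lower at the 0.30 level (26.7% and 3.33%, against 12.4% and 13.4% of all genes tested). The median was 0.73, and with the length and GC trend removed it was 0.28 and 0 genes passed in either direction. Lig4 and Mre11a, which join and process broken ends, had log2 fold changes of 1.39 and 1.02. Of 26 genes of the Bcl2 family and caspases, 2 were higher and 2 lower (7.69% each, median -0.03, or -0.29 with the trend removed). Bok, a relative of Bax, was even within groups at 84.3, 85.9 and 75.9 CPM against 40.4, 40.0 and 42.9 CPM (-1.0, SE 0.30, edgeR adjusted p = 0.176).

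Of 31 genes of S phase and mitosis, 5 were higher and 4 lower (16.1% and 12.9%, close to the 12.4% and 13.4% of all genes tested), with a median of -0.27, or -0.28 with the length and GC trend removed. Top2a, a topoisomerase of dividing cells, was at 12.9, 9.77 and 5.94 CPM in WT and 10.5, 52.4 and 36.6 CPM in KO libraries, and it was KO saline replicate 7 that overlapped the WT range (1.81, SE 0.53, edgeR adjusted p = 0.176). The mitotic genes Kif11 and Tpx2 were also lowest in that KO library, at 6.86 and 6.49 CPM against 14.9 and 13.7 CPM or more in the others. Pcna, the clamp of DNA polymerase, was at 465, 55.5 and 192 CPM against 62.0, 142 and 82.1 CPM (-1.32, edgeR adjusted p = 0.232).

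The cell type markers were then examined. At the 0.30 level, 12.4% of all genes tested were higher and 13.4% lower in KO cortex. In bulk tissue, fewer cells of a type and less RNA per cell cannot be told apart. All 12 pan-neuronal markers were tested, and their summed level was 11010 to 11470 CPM in WT and 8623 to 10804 CPM in KO libraries. Of the 12, Nefm and Nefl, neurofilament subunits, were higher at the 0.30 level and Tubb3, a neuronal tubulin, was lower. The median was 0.12, or -0.26 with the length and GC trend removed, where 0 genes passed. Tubb3 was at 2857, 2823 and 4693 CPM against 1269, 1316 and 1415 CPM (-1.38, SE 0.57, edgeR adjusted p = 0.216). It had a positive value of 0.37 on the authors' RPKM scale, so its direction depended on the normalization.

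The excitatory, upper-layer, deep-layer and interneuron lists had medians between -0.17 and 0.07 and at most 2 genes of a list in either direction at the 0.30 level. With the length and GC trend removed their medians lay between -0.53 and 0.06. Among interneuron genes Dlx6, a homeobox factor, was at 2.40 and Pvalb, a calcium buffer of fast-spiking cells, at -2.33, both at low levels of under 4 CPM. Camk2a, a kinase of excitatory synapses, was at 0.84 and Emx1, a cortical homeobox factor, at -1.09.

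Of 11 oligodendrocyte precursor markers, 4 were higher and 0 lower at the 0.30 level (36.4% higher, against 12.4% of all genes tested). The median was 0.65, and 0.19 with the length and GC trend removed. Gpr17, a receptor of committed precursors, was at 15.2, 17.5 and 61.4 CPM in WT and 87.5, 99.2 and 197 CPM in KO libraries (2.0, SE 0.51, edgeR adjusted p = 0.16). Bcas1 and Olig2 were at 1.68 and 1.21 and also did not overlap. Pdgfra, the growth factor receptor of these cells, was at 0.69 but at -0.15 with the length and GC trend removed, and Olig1 was at -0.28 (edgeR adjusted p = 0.774). Of 12 markers of myelinating oligodendrocytes 0 were higher and 2 lower (16.7%, near the 13.4% of all genes tested).

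Microglia markers were lower in part. Of 18 tested, 8 were lower and 0 higher at the 0.30 level (median -1.18), a share of 44.4% lower against 13.4% of all genes tested. With the length and GC trend removed 0 were lower (median -0.70). Tyrobp, an adaptor of microglial receptors, was at 185, 7.71 and 98.6 CPM in WT and 12.5, 24.8 and 19.1 CPM in KO libraries. WT saline replicate 3 lay below all KO libraries, so the groups overlapped (-2.37, SE 0.78, edgeR adjusted p = 0.176). In the complement genes C1qa and C1qc as well, WT saline replicate 3 was the lowest of the 6 libraries and the other WT libraries were the highest. Cx3cr1 and Csf1r, receptors that define these cells, had log2 fold changes of 0.80 and -0.21 with edgeR adjusted p-values of 0.424 and 0.854.

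Astrocyte markers had 4 of 19 lower and 0 higher (21.1% lower, against 13.4% of all genes tested, median -0.23). Gjb6, a gap junction protein, was at -2.09, and Fabp7, a fatty acid binding protein of immature glia, was at 3498, 610 and 740 CPM against 413, 922 and 603 CPM. Its log2 fold change of -1.32 rested on WT saline replicate 1: it was -0.08 without that library, and 0.88 on the authors' RPKM scales. Endothelial markers had 2 higher and 4 lower of 15 (13.3% and 26.7%, against 12.4% and 13.4% of all genes tested). Their median was -0.16, or 0.05 without WT saline replicate 1. The groups did not overlap in 2 of the 15 markers with KO higher and 2 with KO lower. Over all genes tested this held for 12.9% with KO higher and 10.1% with KO lower. Among the 4 lower were Itm2a, Esam and the glucose transporter Slc2a1, at -2.17, -1.11 and -1.26. With the length and GC trend removed, the medians of these lists were -0.32 and -0.48, with 2 and 3 genes lower and 0 higher. Of 10 mural markers, 1 was higher and 2 lower (10% and 20%, against 12.4% and 13.4% of all genes tested). Their median was 0.09, or -0.71 with the trend removed. Myh11, a smooth muscle myosin, was at 2.15, with all KO libraries above all WT libraries at levels under 2 CPM (but at -0.0104 on log2(RPKM + 1)), and Vtn and Tagln were at -1.94 and -1.56.

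Markers of blood and of the meninges had the lowest medians among the cell type lists. All 7 tested red blood cell genes were lower at the 0.30 level (median -3.20), against 13.4% of all genes tested. In each the KO libraries lay wholly below the WT libraries, which held for 10.1% of all genes tested. With the length and GC trend removed the median was -2.13 and 2 of the 7 were lower. Their summed level was 2776, 458 and 901 CPM in WT and 65.0, 181 and 181 CPM in KO libraries (p = 0.1 by exact permutation, which cannot go lower with 3 libraries per group). Hba-a1, an alpha chain of haemoglobin, was at 228, 145 and 109 CPM against 5.97, 20.9 and 25.9 CPM. The haemoglobin genes include near-identical copies whose reads the counting may divide, so single members are uncertain.

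Of 10 markers of fibroblasts and meninges, 9 were lower at the 0.30 level (median -2.46), against 13.4% of all genes tested. With the length and GC trend removed 8 of the 10 were lower (median -2.89). The summed level was 1664 CPM in WT saline replicate 1, 44.2 and 289 CPM in the other WT libraries and 172, 53.7 and 105 CPM in KO libraries, so the groups overlapped. Col3a1, a fibrillar collagen, was at 253, 6.17 and 19.6 CPM against 14.3, 6.62 and 6.49 CPM, and Dcn, a matrix proteoglycan, was at 250 CPM in replicate 1 and at 0 in replicate 3. Without WT saline replicate 1 the list's median was -0.64 and 0 genes were under 0.30. That library also had the most ribosomal and the shortest-transcript counts, and the part that adjoining tissue had in those values was not tested.

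Choroid plexus markers went the other way in 1 library. Ttr, the thyroid hormone carrier made in that tissue, was at 14.5, 2.06 and 109 CPM in WT and 404, 23.9 and 2213 CPM in KO libraries. The groups overlapped (4.37, SE 2.22, edgeR adjusted p = 0.284), and the summed level of the list was 2527 CPM in KO saline replicate 9 against 44.2 to 510 CPM in the other 5 libraries. Ependymal, striatal, hippocampal and thalamic markers had at most 2 genes at the 0.30 level in a list.

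**Figure D5:**
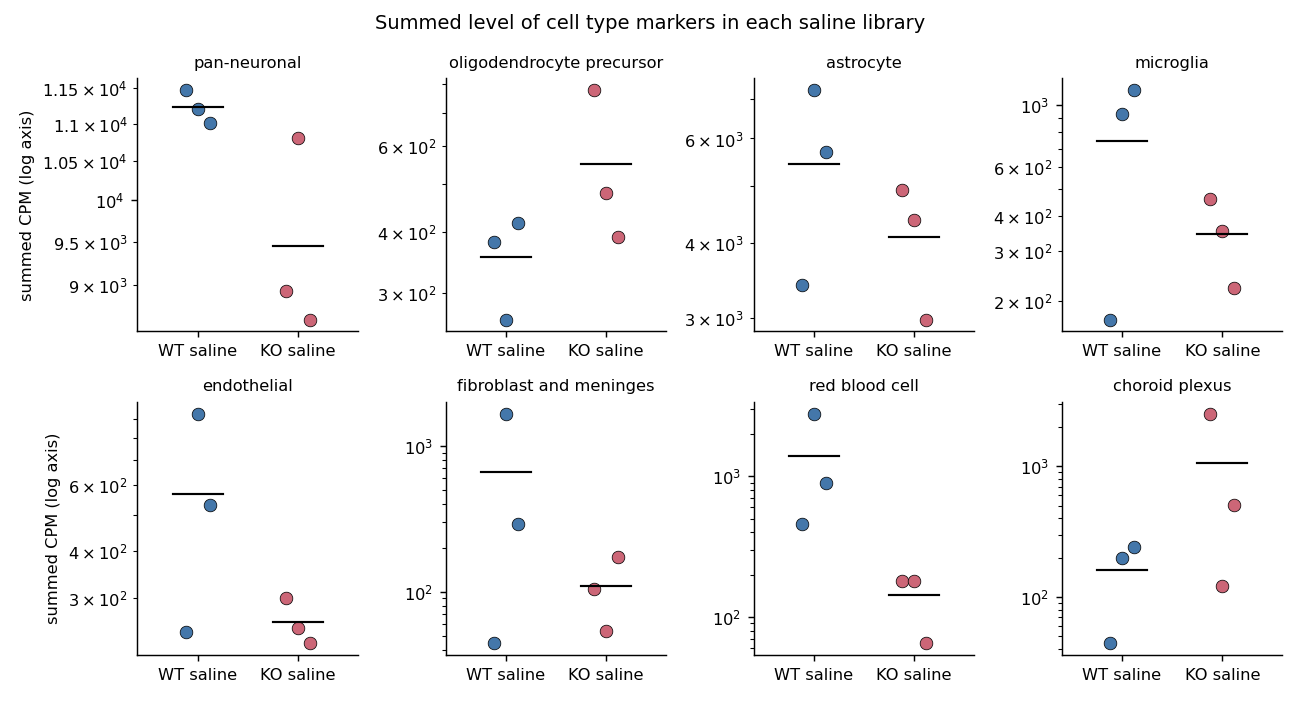
Summed normalized CPM (log axis) of the markers of 8 cell types in each saline library, with a bar at the group mean. Red blood cell markers are at 458 CPM or more in WT and 181 CPM or less in KO libraries, while in the microglia and fibroblast lists WT saline replicate 3 lies below the KO libraries.

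Long noncoding RNAs that stay in the nucleus varied widely within groups. Meg3 was at 58.8, 1320 and 17.2 CPM in WT and 5689, 844 and 826 CPM in KO libraries, and Miat at 10.5, 276 and 6.54 CPM against 1625, 186 and 198 CPM. In both, WT saline replicate 3 stood with the KO libraries. The log2 fold changes were 2.40 and 2.79 (edgeR adjusted p = 0.341 and 0.284), and without the 2 libraries named with L they were 5.94 and 6.24 (edgeR adjusted p = 0.00507 and 0.005).

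The neighbourhood of the targeted gene on chromosome 11 was counted separately. Of 78 tested genes within 1 Mb of Trp53, 7 were higher and 22 lower at the 0.30 level (8.97% and 28.2%, against 12.4% and 13.4% of all genes tested). Their median transcript length was 2083 bases, shorter than the 2965 bases of all genes, and their median log2 fold change was -0.18, or -0.23 with the length and GC trend removed. Within 5 Mb it was 16 higher and 33 lower of 144 genes, and on the whole chromosome 126 and 176 of 1183.

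The same genotypes were compared after ethanol, with no library in common. There, 0 genes were under an adjusted p of 0.05 or 0.30 in the edgeR test, and 477 were at an unadjusted p under 0.05. In all 8 genes called after saline, the 3 WT saline libraries lay below each of the 9 other libraries. That held for 17.2% of the 1823 genes higher at the 0.30 level after saline and for 2.33% of all genes tested. The 8 were chosen for a large difference between WT and KO saline libraries, so part of this pattern was set by the choice. Hivep3 was at 14.8 to 19.7 CPM in WT and 3.34 to 21.6 CPM in KO ethanol libraries, and Peg3 at 70.1 to 157 CPM and 18.4 to 92.8 CPM. In no case was the unadjusted p after ethanol under 0.05.

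Over the 1823 genes higher at the 0.30 level after saline, the median log2 fold change was 1.34 after saline and -0.15 after ethanol. Over the 1977 lower genes it was -1.32 and 0.21. Both sets were chosen by their effect after saline, so their medians after saline were set by the choice and weaker ones after ethanol were favoured. Over all genes tested the median after ethanol was -0.035. The difference between the 2 genotype effects, tested as an interaction, had 0 genes under an adjusted p of 0.05, 1635 under 0.30 and 2239 at an unadjusted p under 0.05 (smallest edgeR adjusted p 0.140). The 1635 became 0 without WT ethanol replicate 4 or KO saline replicate 8 or 9, 20 without WT saline replicate 1, 35, 112 and 665 without KO ethanol replicate 12, WT ethanol replicate 14 or WT ethanol replicate 5, and 5065 without WT saline replicate 3. For ribosomal proteins and oxidative phosphorylation the list medians after ethanol were 0.75 and 0.70, against -2.43 and -1.76 after saline. The red blood cell markers were at 1.22 after ethanol.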

How the data were processed

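RNA of P7 somatosensory cortex was measured in 12 libraries, and the 3 WT saline and 3 p53 KO saline libraries were compared. The authors kept reads with a quality score of at least 30, aligned them to mm10 by TopHat running Bowtie2, and used Partek Flow to quantify the RefSeq transcripts. The deposited estimated counts, 1 per transcript and library, are not scaled and include fractions, since shared reads were divided. The authors' RPKM values, also deposited, came from the same quantification and were used in alternatives only. Their sorted values were nearly the same in every library, a normalization that the methods do not state.

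Counts were summed per gene symbol (35840 transcripts, 24452 symbols), rounded, and filtered by filterByExpr, which kept 14740 genes. All 12 libraries entered a single quasi-likelihood fit of 4 group means with TMM scaling (edgeR 4.0.16 under R 4.3.3). P-values are two-sided and were adjusted by Benjamini-Hochberg over all genes tested. Single values were compared by exact permutation. The level of 0.30 was that of the published analysis. Genes were named by a rule: Trp53, the 12 smallest p in each direction, the 3 smallest p and 3 highest levels in each list, and measured p53 targets. Not every one is given. Rpl35a, Rpl28, Atm, Atr, Hipk2, Cx3cr1 and Csf1r fall outside it and were chosen after their values were seen. The comparison and the lists were chosen with earlier results of these data known.

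Alternatives were DESeq2 1.42.0, limma 3.58.1 with voom weights or on log2(RPKM + 1) and log2(RPKM + 0.1), other scalings, filters and sample sets, the first letter of the library name as a covariate, transcripts as deposited, each library left out, and removal, per library, of the trend over length and GC content of transcripts (GENCODE M21, splines with 5 degrees of freedom). Removing that trend together with the libraries named with L was added after seeing the data. The fit was tested on simulated data. Summaries were made in Python 3.11.15 (scipy 1.17.1, pandas 2.3.3, numpy 2.4.6) and plots in matplotlib 3.10.9. Total counts ranged from 719735 (KO ethanol replicate 12) to 17066392 (KO saline replicate 8), and a low total adds counting error.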

Additional observations from a re-analysis of the deposited data

Results flagged for a closer look

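The 8 genes called at baseline were picked out because the interaction test in edgeR, of the genotype effect after ethanol against that after saline, had an adjusted p under 0.30. None was under 0.05, and since the genes were chosen for a large effect after saline, which the interaction subtracts, a large interaction was favoured by the choice. The effect after ethanol minus that after saline was -4.37 on the log2 scale for Hivep3, -4.42 for Cit, -2.68 for Fam13b, -3.08 for Rims1, -2.45 for Dlgap2, -3.98 for Peg3, -3.67 for Gabbr2 and -3.53 for Shank2. The adjusted p-values ranged from 0.140 to 0.238. KO and WT values after ethanol overlapped in every one of the 8, and it was the WT saline libraries that stood below the rest. Groups of 3 libraries were too small to test for single outlying samples.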

How the results depend on the processing

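The 8 calls at an adjusted p under 0.05 became 716 with DESeq2, 4441 with limma voom and quality weights, 4 with library size only, 0 on log2(RPKM + 1), 3 on log2(RPKM + 0.1), 2 with at least 10 counts in every library, 0 with only the 6 saline libraries, 3783 without the 2 libraries named with L, 0 with the letter as a covariate, 15 for transcripts as deposited, 3380 without the L libraries and with the length and GC trend removed, and 0 to 2177 with 1 library left out. The 3800 genes under 0.30 became 8933 with voom, 419 and 257 on the RPKM scales, 2532 with only the saline libraries, 8435 without the L libraries, 1528 with the trend removed, 7982 with both, and 9 to 7557 with 1 library left out (9 without KO saline replicate 8 or 9, 37 without WT saline replicate 1). The 2890 genes at an unadjusted p under 0.05 became 6283 with voom, 1796 and 1688 on the RPKM scales, 1782 with at least 10 counts in every library, 5864 without the L libraries, 5571 with the trend removed as well, and 1647 to 5041 with 1 library left out. The 1635 genes under 0.30 in the interaction became 4325 without the L libraries, 0 with the letter as a covariate, 28 with the trend removed, 2147 with both, and 0 to 5065 with 1 library left out. With library size only, the median of all genes moved to 0.49 and 83.2% of the genes under 0.30 were higher, against 48.0% with TMM factors.

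Of the 125 single genes under 0.30 that were followed across alternatives, 118 kept their direction under all alternatives in which they were tested. The exceptions were Kcnq1ot1 with voom (0.081), Atm with the trend and the L libraries removed (-0.00902), Trp53bp1 and Pdgfra with the trend removed (-0.063 and -0.15) and without the L libraries as well (-0.15 and -0.18), Fabp7 on the RPKM scales (0.88 on both) and with the trend removed (0.003, and 0.23 without the L libraries), Tubb3 on the RPKM scales (0.37), and Myh11 on log2(RPKM + 1) (-0.0104). The 8 called genes were higher in every alternative that tested them, under 0.05 in 9 to 14 of 24 or 25. Among lists, medians changed sign for p53 regulators (-0.13 and -0.063), potassium channels (-0.091 and -0.045), synaptic vesicle cycle (-0.069), giant scaffolds (-0.11), p53 targets and GABA genes (-0.14 each), splicing regulators (-0.055) and pan-neuronal, upper-layer, mural and striatal markers (-0.26, -0.53, -0.71 and 0.37) with the trend removed, a second value being without the L libraries, for glycolysis on the RPKM scales (0.18 and 0.19), and for cholesterol synthesis with library size only (0.44), on the RPKM scales (0.11 and 0.13) and without WT saline replicate 1 (0.03) or KO saline replicate 7 (0.068). The p53 target median kept its sign in 20 of 25 alternatives. Other lists also changed sign, and not only those with medians near 0. The choroid plexus median moved from 0.8229 to -0.5069 without KO saline replicate 9. Without WT saline replicate 13 the ependymal median moved from -0.7464 to 1.203, and the myelinating oligodendrocyte median from -0.1055 to 1.303. The thalamic median moved from -0.4131 to 0.5176 without WT saline replicate 1. The causes of these changes were not tested. No paired analysis was possible because the groups share no replicate number.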
